A study of Homo sapiens with 8 samples.

Results

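The genes described here are the 40 nuclear-encoded subunits and close partners of respiratory complexes II to V, followed by their ribosome-footprint levels in a neuroblastoma line under an eIF4A inhibitor. They were found by matching Ensembl gene identifiers, with the version ignored, to a written list of symbols, and all 40 were among the 60651 genes of the deposited table. The list holds 4 genes of complex II, 9 of complex III, the electron carrier CYCS, 10 of complex IV and 16 of complex V.

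The study profiled ribosomes in IMR32, an established human neuroblastoma line that carries amplified MYCN and is described in the labels as wild type, of cell type neuroblast. One group of 4 libraries came from cells given CR31B, an analogue of silvestrol and a member of the rocaglates, which bind the RNA helicase eIF4A. The other 4 came from cells given the solvent DMSO at 0.1%, and cells of both groups were harvested after 6 h, once cycloheximide had been added to halt elongating ribosomes. The dose of CR31B is not given in the sources used here, and all libraries come from 1 line. The series text calls the 4 libraries of a group biological replicates. No libraries of total mRNA were analysed here, so a footprint level combines how much mRNA a gene has and how densely ribosomes load it.

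The respiratory chain moves electrons along protein complexes of the inner mitochondrial membrane and uses the energy to pump protons, and ATP synthase, complex V, lets the protons flow back to make ATP. Complex II feeds in electrons from succinate, complex III hands them to cytochrome c, and complex IV passes them to oxygen. Most subunits are made on cytosolic ribosomes and imported, while a few core subunits of complexes III, IV and V are made inside mitochondria. Neuroblastoma cells, like other dividing cells, need these proteins for ATP and for recycling redox cofactors.

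Levels are in TPM, a share of each library's footprints after division by transcript length. Because every library sums to the same total, a lower TPM does not tell fewer footprints on that gene from more on others, and a change in all RNA per cell or in cell number cannot be told apart from no change. From 17857 to 22270 genes were above 0 per library. Protein-coding genes held 61.3% of TPM with CR31B replicate 1 and from 51.8% to 52.3% in the other CR31B libraries, against 52.0% to 58.4% in DMSO. Of 12 adrenergic neuroblast markers, 11 were tested, and their summed level ranged from 729 to 826 TPM with CR31B and from 667 to 829 TPM with DMSO. TH, which makes catecholamines, averaged only 0.820 TPM with CR31B and 0.995 TPM with DMSO. HAND2, a transcription factor of that lineage, rose by 0.58 on the log2 scale (adjusted limma p of 0.0188), and TBX2 rose by 0.95 (adjusted limma p of 0.0285). Of 10 mesenchymal and stromal markers, 4 were tested and 0 were called by limma, 0 also having an unadjusted p under 0.05. Their sum ranged from 14.2 to 24.2 TPM with CR31B and from 15.5 to 27.9 TPM with DMSO, and PRRX1 and TWIST2 were listed at 0 in all libraries. Any part of these markers in the results on the members was not tested.

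The main comparison asked how the footprints of each subunit differed between CR31B and DMSO. Few did. CYCS, the mobile electron carrier, and COX6B1, a subunit of complex IV, fell, while ATP5F1E, the epsilon subunit of ATP synthase, rose. These 3 of 40 members passed a limma adjusted p under 0.05, 1 higher and 2 lower, while 7.46% of all 11778 tested genes passed (3.45% higher and 4.02% lower). The members' share is therefore close to that of all genes. An unadjusted p under 0.05 was reached by 7 members, against 23.4% of tested genes. In 8 members no CR31B library overlapped any DMSO library, 4 with CR31B higher and 4 with CR31B lower, against 16.2% of tested genes (8.07% higher and 8.14% lower).

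The other 37 members did not pass the test, with estimates from -0.45 (ATP5MC1) to 0.36 (UQCRFS1). The log2 fold change of CR31B over DMSO, on log2(TPM + 1), was above 0 in 28 of the 40 members, and it was above 0 in 54.1% of tested genes. Its median was 0.12 over the members and 0.029 over all tested genes. By complex the median was 0.18 for complex II, 0.16 for complex III, 0.12 for complex IV and 0.091 for complex V. These medians depended on single libraries. Without CR31B replicate 1, the library with the high protein-coding share, the median was 0.032 over the members and -0.0046 over all tested genes. Without DMSO replicate 1 these values were 0.15 and 0.041. Replicate 1 was the highest library of both groups, with a median over all members, against the DMSO mean, of 0.30 with CR31B and 0.12 with DMSO. Leaving out both libraries of that number together was not tested. Taken per library, the median log2 level of a complex against the DMSO mean had an SD over the CR31B libraries of 0.24 for complex II, 0.20 for complex III and 0.13 for both complexes IV and V. In replicate pairs, this median was higher with CR31B in 4 of 4 pairs for complex II and in 3 of 4 for each of complexes III, IV and V.

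**Figure D1:**
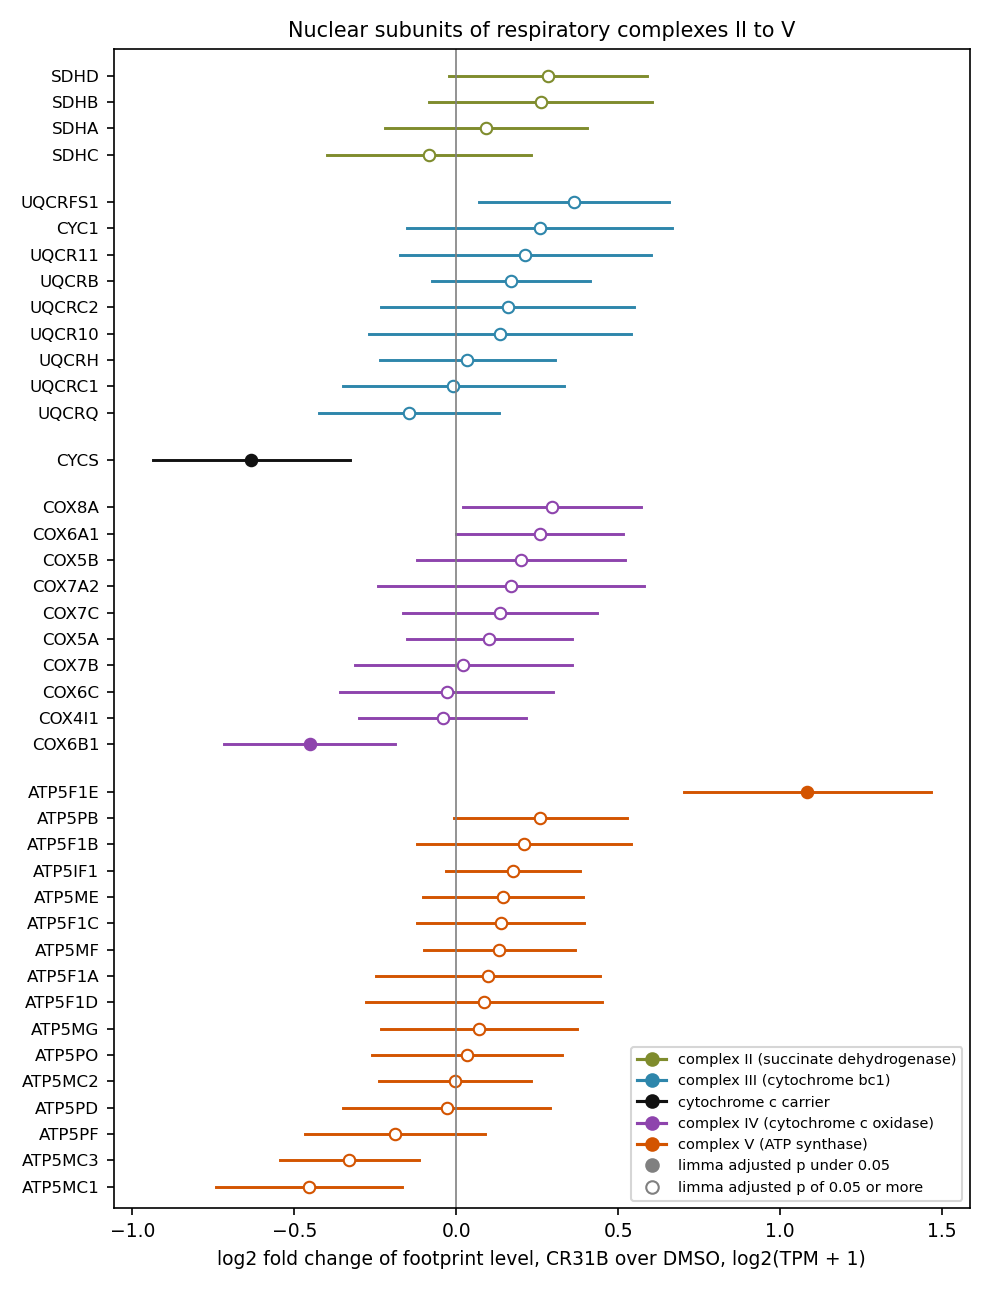
Log2 fold change of CR31B over DMSO, on log2(TPM + 1), of all 40 members by complex, with the 95% confidence interval of the limma fit as a bar (n = 4 libraries per group). Only CYCS and COX6B1 on the lower side and ATP5F1E on the higher side passed an adjusted p under 0.05, and 28 of the 40 points lie above 0.

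The summed level of each complex was nearly the same in both groups. All 40 members together held 12526 ± 1149 TPM with CR31B and 12187 ± 630 TPM with DMSO (SD, n = 4 each), or from 1.13% to 1.42% of a library. The ratio of group means was 1.02 for complex II (354 ± 60.3 against 347 ± 35.1 TPM), 1.05 for complex III (2365 ± 212 against 2247 ± 156 TPM), 1.02 for complex IV (5398 ± 498 against 5317 ± 285 TPM) and 1.06 for complex V (4216 ± 435 against 3978 ± 254 TPM). In each of the 4 complexes CR31B replicate 1 had the highest sum of all 8 libraries, and the groups overlapped.

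**Figure D2:**
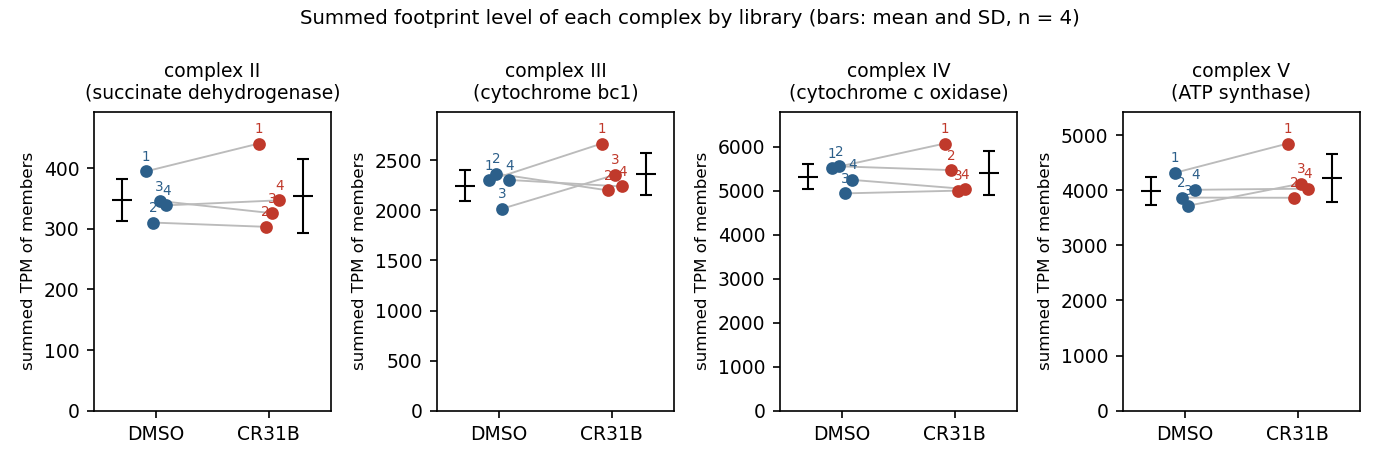
Summed TPM of the members of each complex in every library, with the replicate number beside each point and the mean and SD of each group (n = 4). CR31B replicate 1 is the highest point in complexes II to V, and the ratios of group means lie between 1.02 and 1.06.

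Complex II, succinate dehydrogenase, is also an enzyme of the tricarboxylic acid cycle. None of its 4 members passed the test by limma, and 0 had an unadjusted p under 0.05. SDHD, a membrane anchor, showed the largest rise of the complex. Its levels in CR31B replicates 1 to 4 were 60.63, 40.63, 45.57 and 53.12 TPM, and in DMSO replicates 1 to 4 they were 45.09, 36.44, 41.29 and 39.34 TPM. The ranges overlapped, although CR31B was higher in each of the 4 replicate pairs, and the log2 fold change was 0.28 (SE 0.14, adjusted limma p of 0.250). SDHC, the other membrane anchor, had the only negative estimate. It stood at 276.87, 194.62, 201.23 and 213.37 TPM with CR31B and at 272.35, 204.47, 229.81 and 228.01 TPM with DMSO. Replicate 1 was the highest library of both groups, and the difference was -0.083 (SE 0.14, adjusted limma p of 0.777). SDHB, which carries the iron-sulfur clusters, averaged 34.9 ± 6.26 TPM with CR31B and 28.9 ± 4.70 TPM with DMSO (SD, n = 4 each). SDHA, the flavoprotein that oxidises succinate, averaged 47.7 ± 8.72 against 44.3 ± 4.35 TPM. All 4 genes have pseudogene copies, described further on, and 96.0% of the footprint-sized windows of SDHD also occur in other transcripts.

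Complex III, the cytochrome bc1 complex, had 0 of 9 members called by limma, and 1, UQCRFS1, with an unadjusted p under 0.05. UQCRFS1 is the Rieske iron-sulfur protein, through which electrons leave ubiquinol. Its levels were 7.63, 6.30, 7.96 and 8.18 TPM with CR31B and 5.95, 4.70, 5.59 and 6.23 TPM with DMSO. Each CR31B library lay above each DMSO library, the lowest of the former at 6.30 and the highest of the latter at 6.23 TPM. The log2 fold change of 0.36 (SE 0.13, 95% interval 0.071 to 0.66) had a adjusted limma p of 0.129. UQCRQ, a small subunit near cytochrome b, had the lowest estimate of the complex. It stood at 306.86, 267.60, 348.75 and 259.46 TPM with CR31B and at 301.38, 358.66, 320.43 and 321.72 TPM with DMSO, so the groups overlapped, with a difference of -0.15 (SE 0.13, adjusted limma p of 0.532).

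The remaining members of complex III lay between these. CYC1, the cytochrome c1 that donates electrons to cytochrome c, averaged 47.6 ± 10.1 TPM with CR31B and 39.4 ± 6.88 TPM with DMSO. The core proteins UQCRC1 and UQCRC2 had log2 fold changes of -0.0084 and 0.16. UQCRH, the hinge protein that helps cytochrome c1 meet cytochrome c, was the highest member of the complex at 773 ± 38.8 against 757 ± 84.4 TPM (log2 fold change 0.035). The small subunits UQCRB, UQCR10 and UQCR11 had estimates of 0.17, 0.14 and 0.21. Their limma adjusted p ranged, with those of CYC1, UQCRC1, UQCRC2 and UQCRH, from 0.389 to 0.981. All 143 footprint-sized windows of UQCR11 also lie in a same-strand protein-coding gene that averaged 34.1 TPM with CR31B and 36.8 TPM with DMSO, so its level rests on how the authors' counting divided reads between both genes.

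CYCS (ENSG00000172115.9, chr7:25120091-25125361 on the minus strand of GRCh38, GENCODE release 29) encodes the cytochrome c that shuttles electrons from complex III to complex IV and, once released from mitochondria, starts apoptosis. Its footprint level was 214.65, 208.76, 150.29 and 197.61 TPM with CR31B replicates 1 to 4 and 292.23, 269.00, 293.89 and 335.44 TPM with DMSO replicates 1 to 4. The highest CR31B library, at 214.65 TPM, was below the lowest DMSO library, at 269.00 TPM, so the groups did not overlap. CYCS fell by 0.63 on the log2 scale (SE 0.14, 95% interval -0.94 to -0.33, adjusted limma p of 0.0211), from 298 ± 27.6 to 193 ± 29.2 TPM (SD, n = 4 each). It was called in 15 of 19 alternative analyses, with adjusted p from 0.0164 to 0.0744. It lost its call without CR31B replicate 4, DMSO replicate 1 or DMSO replicate 4, and with no filter on low genes. Reads of CYCS can be hard to place, because 71.7% of its coding windows of 29 nt also occur in processed pseudogenes. The table lists 42 copies under its name, and none reached a mean of 1 TPM.

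**Figure D3:**
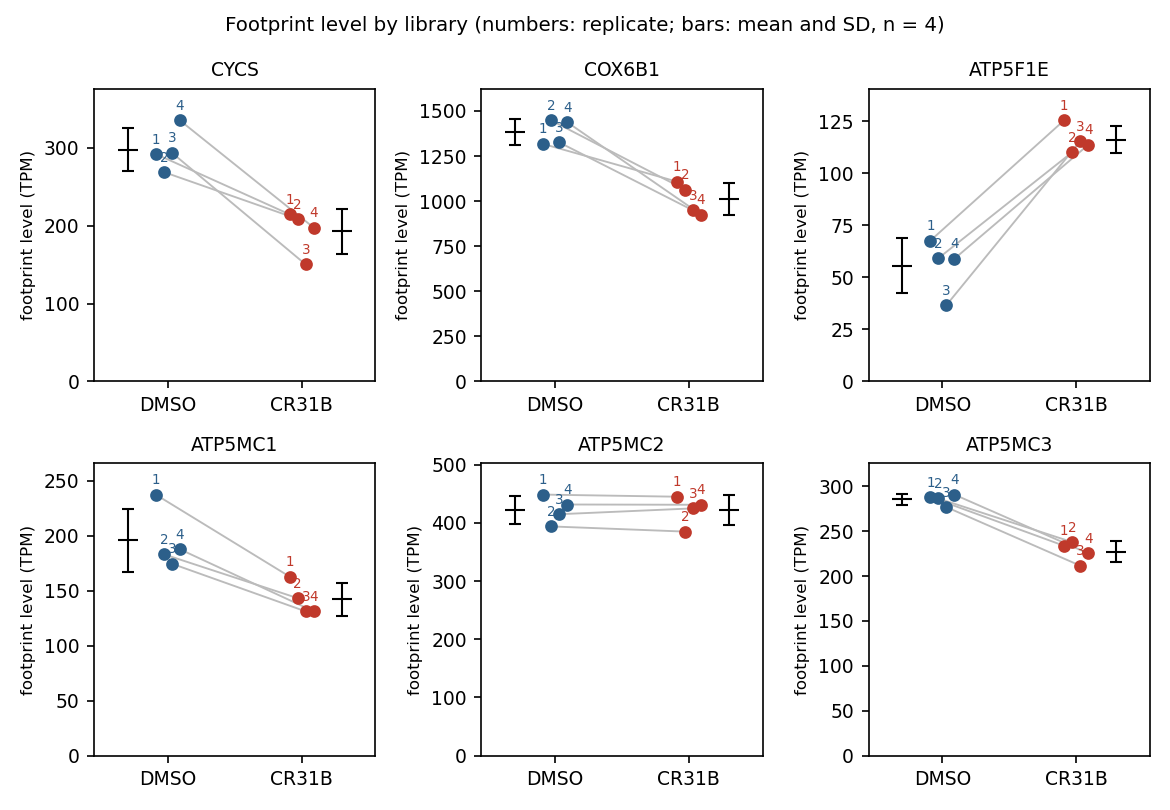
TPM of CYCS, COX6B1, ATP5F1E and the 3 genes of ATP synthase subunit c in every library, with lines joining replicates of the same number and bars for the mean and SD of each group (n = 4). CYCS, COX6B1, ATP5MC1 and ATP5MC3 lie lower in all CR31B libraries, ATP5F1E lies higher, and the groups of ATP5MC2 overlap.

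In complex IV, cytochrome c oxidase, 1 of 10 members fell, COX6B1 (ENSG00000126267.11, chr19:35648223-35658861, plus strand), and 0 rose. COX6B1 sits on the outer face of the complex, at the contact of its monomers. Its levels were 1108, 1064, 949 and 926 TPM with CR31B and 1317, 1448, 1326 and 1438 TPM with DMSO. The groups did not overlap, and the closest libraries were replicate 1 of each. It fell by 0.45 (SE 0.12, 95% interval -0.72 to -0.19, adjusted limma p of 0.0446), from 1382 ± 70.4 to 1012 ± 88.4 TPM (SD, n = 4 each). Only 11 of 19 alternatives called it, with adjusted p from 0.0273 to 0.128, and leaving out any library other than CR31B replicate 1 lost the call. Its reads are distinctive, since 0.429% of its coding windows occur in another transcript.

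COX6A1 and COX8A had the largest positive estimates of complex IV, and neither passed the test. COX8A, a small transmembrane subunit, stood at 392.32, 487.71, 422.43 and 480.22 TPM with CR31B and at 394.47, 391.38, 344.18 and 320.40 TPM with DMSO. Its groups overlapped through CR31B replicate 1, the only pair in which CR31B was not higher, and the log2 fold change was 0.30 (SE 0.12, adjusted limma p of 0.179). COX6A1, a membrane subunit close to the contact of the monomers, ranged from 1034 to 1203 TPM with CR31B and from 858 to 992 TPM with DMSO. Those ranges did not overlap, with a log2 fold change of 0.26 (SE 0.12, adjusted limma p of 0.214). Of the windows of COX6A1, 90.7% occur in other genes and 74.8% in pseudogenes, although no same-named copy reached a mean of 1 TPM. It shares 48.7% of its windows with a same-strand protein-coding gene at 38.2 TPM with CR31B and 43.7 TPM with DMSO. In DMSO, COX6B1 was the higher of the pair (1382 against 926 TPM), and in CR31B COX6A1 was (1107 against 1012 TPM).

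The other 7 subunits of complex IV had limma adjusted p from 0.446 to 0.952. COX4I1 and COX5A, which join the core early in assembly, had log2 fold changes of -0.041 and 0.10. COX5B, a zinc-binding subunit on the matrix side, had 0.20. COX7A2, COX7B and COX7C, single-span membrane subunits, had 0.17, 0.021 and 0.14, and COX6C, another such subunit, had -0.029. COX7A2 was the most variable of the complex in CR31B, at 842 ± 196 TPM against 745 ± 147 TPM with DMSO.

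Complex V held the largest difference of all members. ATP5F1E (ENSG00000124172.10, chr20:59025467-59032382, minus strand) encodes the epsilon subunit of the central stalk of ATP synthase. Its levels were 125.40, 110.06, 115.37 and 113.61 TPM with CR31B replicates 1 to 4 and 67.55, 59.12, 36.57 and 58.87 TPM with DMSO replicates 1 to 4. Every CR31B library lay above every DMSO library. ATP5F1E rose by 1.08 on the log2 scale (SE 0.17, 95% interval 0.70 to 1.47, adjusted limma p of 0.00568), from 55.5 ± 13.3 to 116 ± 6.58 TPM (SD, n = 4 each). The rise was called in 17 of 19 alternatives, and it was not called in 2 of the 3 in which the gene was summed with its pseudogene copy.

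That copy, the processed pseudogene ATP5F1EP2 (ENSG00000180389.7, chr13:27945260-27945415, plus strand), is a reverse-transcribed coding sequence without introns. It is 156 nt long, the same as the coding sequence of ATP5F1E, and differs from it at 6 bases (96.15% identity). Both are shown, 5′ to 3′ on the coding strand of GRCh38, because reads that span no difference cannot be assigned to either. Capitals mark the bases that differ, in the gene first and the copy below.
ATP5F1E: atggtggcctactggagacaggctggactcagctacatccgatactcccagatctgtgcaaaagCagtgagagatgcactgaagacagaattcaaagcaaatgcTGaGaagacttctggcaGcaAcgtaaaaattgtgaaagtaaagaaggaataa
ATP5F1EP2: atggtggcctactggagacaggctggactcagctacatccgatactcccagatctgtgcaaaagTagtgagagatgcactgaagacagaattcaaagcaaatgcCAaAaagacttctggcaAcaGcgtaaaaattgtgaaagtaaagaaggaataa
Counted from 1 at the A of the start codon, with the gene's base first, the differences are C65T, T105C, G106A, G108A, G122A and A125G. They leave 39.1% of the gene's windows of 29 nt, about the length of the selected footprints, shared with the copy.

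The copy's estimate had the opposite sign. ATP5F1EP2 was listed at 167.28, 100.62, 15.04 and 60.86 TPM with CR31B and at 280.86, 158.76, 122.27 and 187.27 TPM with DMSO. It was lower in CR31B in all 4 replicate pairs, but the groups overlapped and the difference of -1.49 (SE 0.59) had a adjusted limma p of 0.159. Of the level of gene and copy together, the gene held 42.8%, 52.2%, 88.5% and 65.1% in CR31B and 19.4%, 27.1%, 23.0% and 23.9% in DMSO. The means of this share were 62.2% ± 19.8 and 23.4% ± 3.19 (SD, n = 4 each), and the groups did not overlap. This pair, like those of COX7C and UQCRFS1, was picked after its values were seen, so the shares are given with no test.

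How the copy is counted therefore set the size and the sign of the ATP5F1E estimate. With the TPM of gene and copy added before the fit, the log2 fold change was -0.27 (SE 0.27, 95% interval -0.87 to 0.33, adjusted limma p of 0.604). Adding TPM gives each read on the short copy more weight than a read on the gene. With the copy's TPM weighted by its length relative to the gene's shortest annotated principal transcript, 697 nt, the value was 0.50 (SE 0.20, adjusted limma p of 0.153). With the longest, 3665 nt, it was 0.94 (SE 0.18, adjusted limma p of 0.0119). The transcript lengths that the authors' counting used are not given in the sources used here, so which of these is nearest was not tested.

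**Figure D4:**
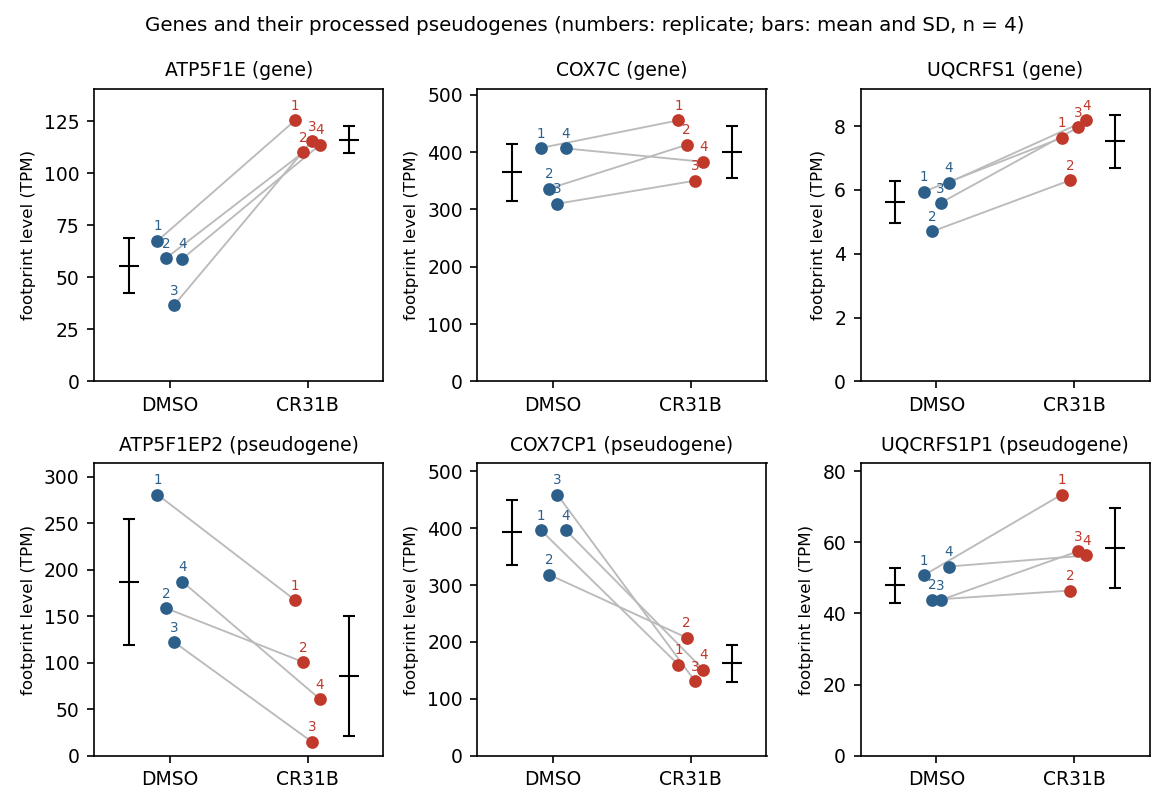
TPM of ATP5F1E, COX7C and UQCRFS1 in the upper panels and of their processed pseudogenes in the lower panels, by library, with lines joining replicates of the same number and bars for the mean and SD of each group (n = 4). In all 4 pairs ATP5F1E is higher and its copy lower with CR31B, the copy of COX7C lies lower in all CR31B libraries, and UQCRFS1 and its copy are both higher in all 4 pairs.

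A second gene and copy showed part of the same pattern. COX7C, whose own level did not pass the test, stood at 455.40, 412.65, 350.09 and 383.10 TPM with CR31B and at 407.21, 336.17, 309.91 and 406.41 TPM with DMSO (log2 fold change 0.14, SE 0.14, adjusted limma p of 0.596). Its processed pseudogene COX7CP1 (chr13:49187479-49187670, minus strand) stood at 160.00, 207.53, 131.32 and 151.52 TPM with CR31B and at 396.98, 318.50, 459.37 and 397.16 TPM with DMSO. The copy fell by 1.28 (SE 0.16, adjusted limma p of 0.00206), with no overlap between groups. The gene held from 66.5% to 74.0% of the summed level in CR31B and from 40.3% to 51.4% in DMSO. With the TPM of both added, the log2 fold change of COX7C was -0.43 (SE 0.13, adjusted limma p of 0.0715). Weighted by length it was -0.098 with the shortest transcript and 0.026 with the longest.

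The stretch of COX7C that aligns with its copy, coding positions 3 to 192, differs at 4 bases: A56G, C159T, C174A and G180A. It is printed below in the same way, to show how far apart the differences lie.
COX7C: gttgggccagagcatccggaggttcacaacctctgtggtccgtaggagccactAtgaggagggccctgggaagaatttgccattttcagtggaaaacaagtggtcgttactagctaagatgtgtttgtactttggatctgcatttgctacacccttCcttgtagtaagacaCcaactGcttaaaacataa
COX7CP1: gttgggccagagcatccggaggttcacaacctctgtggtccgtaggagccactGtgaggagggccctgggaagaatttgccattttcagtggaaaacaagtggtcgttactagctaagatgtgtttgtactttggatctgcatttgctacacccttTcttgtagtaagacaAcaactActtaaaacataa
Of the coding windows of COX7C, 60.4% are shared with COX7CP1 and 67.7% with any pseudogene.

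UQCRFS1 is the opposite case, a gene whose copy holds most of the level. UQCRFS1P1 (chr22:39875289-39876108, plus strand), identical to the gene at 98.89% of 813 aligned bases, stood at 58.4 ± 11.2 TPM with CR31B and 47.9 ± 4.83 TPM with DMSO (SD, n = 4 each), against the gene's own 7.52 ± 0.843 and 5.62 ± 0.665 TPM. The gene's share of the sum was 11.5% ± 1.46 in CR31B and 10.5% ± 0.671 in DMSO, and these overlapped. The low level listed for the Rieske protein beside the rest of complex III is thus uncertain.

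Shared sequence touches most members. The table lists 173 same-named pseudogene copies of 31 members, of which 8 copies, of 7 members, reached a mean of 1 TPM over the 8 libraries. Beside the copies already given, these are SDHAP1, SDHAP4, UQCRBP1, ATP5F1AP2 and ATP5MFP2, each below 20 TPM in the mean of either group. None of those 5 passed the test by limma (adjusted p from 0.146 to 0.895). Processed pseudogenes listed by identifier alone also share windows with members: ENSG00000254373 with 32.8% of those of UQCRB, at 24.2 TPM with CR31B and 20.4 TPM with DMSO, and ENSG00000108958 with 55.2% of those of SDHC, at 6.88 and 6.87 TPM. These were not among the copies summed with their genes. Exons of 21 members overlap another annotated gene, and whether the counting used strand is not given in the sources used here. Among these, ATP5PB overlaps WDR77 on the opposite strand, at 47.9 TPM with CR31B and 107.5 TPM with DMSO, whose part in the value of ATP5PB was not tested, and ATP5MF overlaps the readthrough gene ATP5MF-PTCD1 at 49.6 and 48.3 TPM.

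**Figure D5:**
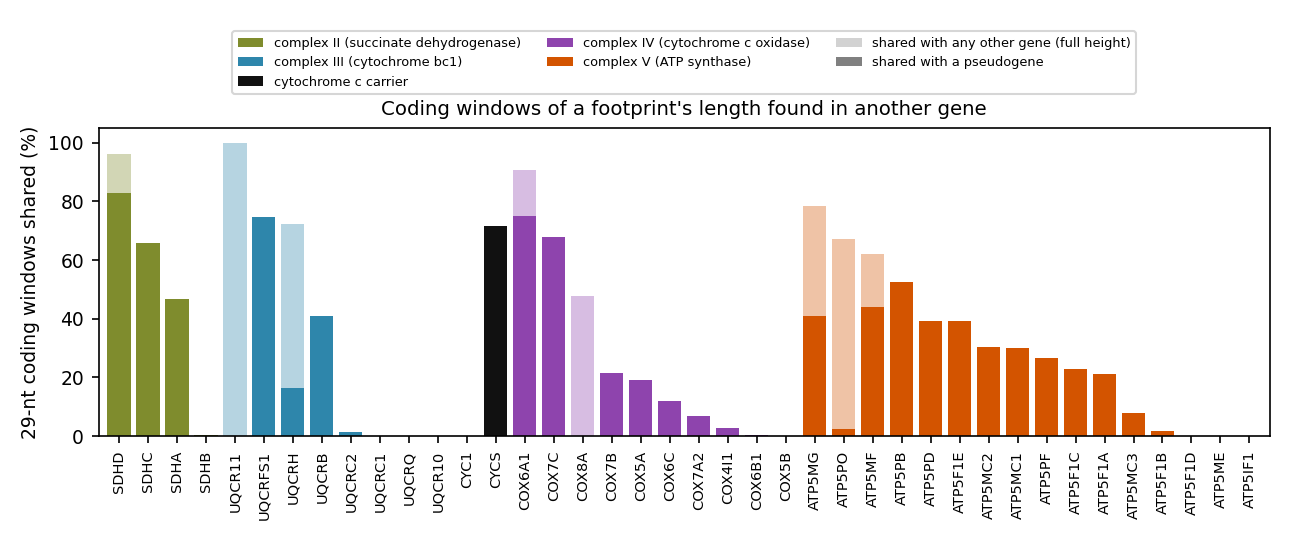
Percentage of each member's 29-nt coding windows that also occur in another annotated gene, as 1 bar per member, grouped by complex. The full height of a bar counts windows shared with any other gene, and the solid part counts those shared with a pseudogene. CYCS (71.7%) and ATP5F1E (39.1%) share many windows and COX6B1 (0.429%) almost none.

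The membrane ring of ATP synthase is built of subunit c, whose identical mature protein is encoded by ATP5MC1, ATP5MC2 and ATP5MC3 with different import sequences. ATP5MC1 (ENSG00000159199.14, chr17:48892765-48895871, plus strand) had the lowest estimate of complex V, at 162.92, 143.31, 131.27 and 131.32 TPM with CR31B and 237.53, 183.24, 174.67 and 187.80 TPM with DMSO. The groups did not overlap, and the difference of -0.45 (SE 0.13, 95% interval -0.74 to -0.17) had a adjusted limma p of 0.0599. With the replicate number as a block, ATP5MC1 passed (adjusted limma p of 0.0165). ATP5MC3 stood at 233.71, 237.81, 211.56 and 225.28 TPM with CR31B and at 288.04, 286.36, 276.80 and 290.71 TPM with DMSO. These groups did not overlap either, and the difference was -0.33 (SE 0.097, adjusted limma p of 0.0654, and 0.0386 with the replicate block). ATP5MC2, the highest of the genes, stood at 445.06, 385.10, 424.98 and 431.18 TPM with CR31B and at 448.71, 394.00, 414.94 and 431.66 TPM with DMSO. Its difference was -0.0030 (SE 0.11, 95% interval -0.24 to 0.23, adjusted limma p of 0.988).

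The genes were also set against each other, a comparison chosen after their values were seen and given with no test. The log2 ratio of ATP5MC1 to ATP5MC2 was lower in CR31B by a difference of -0.45, and that of ATP5MC3 to ATP5MC2 by -0.33, each in 4 of 4 pairs and with no overlap between groups. The ratio of ATP5MC1 to ATP5MC3 differed by -0.13. Of their summed level, ATP5MC2 held 53.3% ± 2.29 in CR31B and 46.7% ± 1.08 in DMSO, ATP5MC1 18.0% ± 1.28 and 21.6% ± 1.90, and ATP5MC3 28.7% ± 1.60 and 31.7% ± 1.51 (SD, n = 4 each). The sum itself was 791 ± 35.3 TPM with CR31B and 904 ± 51.7 TPM with DMSO. Of the coding windows, 30.0% of ATP5MC1, 30.4% of ATP5MC2 and 7.73% of ATP5MC3 occur in pseudogenes. No same-named copy reached a mean of 1 TPM over the 8 libraries. ATP5MC2P4, which shares 21.6% of the windows of ATP5MC2, averaged 0.678 TPM with CR31B and 1.06 TPM with DMSO.

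Apart from ATP5F1E, no member of the catalytic head or the stalks of ATP synthase passed the test. ATP5F1B, the catalytic beta subunit, was the highest member of complex V at 643 ± 123 TPM with CR31B and 551 ± 51.3 TPM with DMSO. It and ATP5F1A, the alpha subunit, had log2 fold changes of 0.21 and 0.097. ATP5F1C and ATP5F1D, the gamma and delta subunits, which form the rotating stalk with ATP5F1E, had 0.14 and 0.085. In the peripheral stalk, ATP5PB, ATP5PD, ATP5PF and ATP5PO had 0.26, -0.030, -0.19 and 0.034. ATP5ME, ATP5MF and ATP5MG, small subunits that bind where synthase dimers form, had 0.15, 0.13 and 0.070. Limma adjusted p of these 11 genes ranged from 0.226 to 0.930. ATP5IF1, the protein that blocks ATP synthase from running in reverse, ranged from 152.82 to 162.11 TPM with CR31B and from 134.09 to 144.69 TPM with DMSO. Its groups did not overlap, yet the log2 fold change of 0.17 (SE 0.093) had a adjusted limma p of 0.293.

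Rocaglates hold eIF4A on purine-rich RNA, so the first bases of the members' mRNAs were read from a table of RefSeq starts (GRCh38.p14), in which 32 of the 40 were matched, with 37 start sites. Starts of SDHC, UQCRB, CYC1, COX6C, ATP5F1B, ATP5F1D, ATP5MC3 and ATP5MF were not used here. Shown are the first 30 bases of the called members, of ATP5MC1 and 1 start of ATP5MC2, and of ATP5IF1. They run 5′ to 3′ as in the mRNA, with the longest run of A and G among them in capitals. Of the ATP5MC2 starts, the one shown has the longest pyrimidine run from its first base, 9 nt. The others have runs of 6 and 0 nt.
CYCS, chr7:25125231-25125260, minus strand: AGAGAGtggggacgtccggcttcggagcgg
COX6B1, chr19:35648323-35648352, plus strand: AGtagttccgcttcctgtccgactgtggtg
ATP5F1E, chr20:59032306-59032335, minus strand: cttcctgcggctGAAccgcccggctgagcc
ATP5MC1, chr17:48892787-48892816, plus strand: aggacacgtgggtGGGGGAAGctgagcgct
ATP5MC2, chr12:53676054-53676083, minus strand: cccctctctgtcttctctgcagtGGGAGca
ATP5IF1, chr1:28236124-28236153, plus strand: agcgcgtaacGAGAGActgcttgctgcggc
The motifs AGAGAG and GAGAGA, which overlap each other, were searched in the first 50 bases on the mRNA strand only. They occurred in 2 of the 37 starts (5.41%), AGAGAG at the very start of CYCS, which fell, and GAGAGA in ATP5IF1, which was not called. Of the 12919 starts of tested genes, 3.51% held either. The median of the longest purine run was 5 nt in the members and in all tested genes.

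The first letters of the starts were counted as well. A C at the first base was found in 35.1% of the members' starts and in 12.3% of those of tested genes. At least 4 pyrimidines from the first base on were found in 9 starts (24.3%), of ATP5F1E, ATP5MC2 (2 starts), ATP5MG, ATP5PO, COX4I1, COX7C, UQCRC2 and UQCRH, against 7.30% of the starts of tested genes. ATP5F1E was the only one of these genes to pass the test. These counts are given as descriptions, and start sites used in IMR32 cells were not measured.

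Other genes of the same pathway were taken from written lists. Of 39 assembly factors of complexes II to V, 1 rose, 0 fell and 6 had an unadjusted p under 0.05, with a median log2 fold change of 0.087. Over all tested genes 7.46% were called and 23.4% had such an unadjusted p, and the counts of this and the following lists are to be read against these. The riser was COX19, which helps deliver copper to complex IV, at 9.39, 6.91, 8.24 and 7.54 TPM with CR31B and 3.64, 4.21, 4.49 and 3.50 TPM with DMSO. Its groups did not overlap, and it rose by 0.86 (SE 0.13, adjusted limma p of 0.00545). Just outside the threshold lay 2 factors of complex IV assembly, COX16 at -0.58 (adjusted limma p of 0.0517) and PET100 at -0.47 (adjusted limma p of 0.0599).

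None of the 6 mitochondrially encoded subunits of complexes III to V was called by limma, and 0 had an unadjusted p under 0.05. Their median log2 fold change was -0.043, and their sum varied widely in both groups, from 1221 to 2641 TPM with CR31B and from 1065 to 2741 TPM with DMSO. Of 13 other subunits and isoforms, 7 were tested, 0 were called and 0 had an unadjusted p under 0.05, with a median of -0.033. COX6A2, COX7A1, COX7B2 and COX8C, tissue-specific isoforms, were listed at 0 in all libraries. Limma called 0 of 13 tested regulators of respiratory gene expression (3 at an unadjusted p under 0.05, median 0.29), 0 of 13 enzymes of the tricarboxylic acid cycle (3, median 0.26) and 0 of 7 carriers and porins (1, median -0.030). IDH3B, a subunit of isocitrate dehydrogenase, was nearest to a call among the cycle enzymes at -0.37 (adjusted limma p of 0.0510), with no overlap between groups.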

How the data were processed

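Ribosome footprints of 8 IMR32 libraries were analysed from 1 table of TPM per gene that the authors deposited. TPM keep no read counts, so depth per value is unknown and no counting interval is given. The submitters' processing notes name cutadapt 3.2, Bowtie2 2.3.4.1, STAR 2.7.1a, RSEM 1.2.28 and DESeq2 1.32.0 and the build hg38 or GRCh38, with no role given. The annotation release, the strand setting and the placing of reads with several positions are not given in the sources used here. Columns were matched to libraries by their labels. Fragments were selected at footprint length, per the labels' protocols, and the runs holding each library are not named.

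The deposited TPM were taken as log2(TPM + 1). Genes averaging 1 TPM or more over the 8 libraries, 11778 in all, were fitted with limma 3.58.1 in R 4.3.3 (lmFit, eBayes with trend), with treatment as the only term and Benjamini-Hochberg adjustment over all of them. A call is an adjusted p under 0.05. All 40 members passed the filter. On simulated data (5 tables of 11778 genes, 200 changed), 85.2% of changed genes were recovered (95.4% of those changed 4-fold) and 5.53% of calls were false. The simulated noise was independent between libraries, with SDs shuffled over genes, so it held no replicate effect. Changes were placed in genes of higher level and were larger than those of CYCS and COX6B1. These rates therefore need not hold for the real libraries. Recovery at the sizes of the members' log2 fold changes, from -0.63 (CYCS) to 1.08 (ATP5F1E), was not tested separately. P-values set the group difference against the spread between these libraries, with each gene's variance drawn toward the trend over genes. In the main fit this spread includes differences between replicate numbers.

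Same-numbered libraries deviated together (correlations of 0.333, 0.324, 0.301 and 0.105, in order of number, although CR31B replicate 4 correlated more, at 0.134, with DMSO replicate 1), so the numbers were treated as pairs in an alternative fit. What a number marks is not stated in the labels. Coordinates, exon overlaps, transcripts and coding windows of 29 nt come from GENCODE release 29 (58405 of 60651 identifiers matched), and symbols from a table of gene names (60481 matched). Starts come from RefSeq. Python 3.11.15, pandas 2.3.3, SciPy 1.17.1, Biopython 1.88 and matplotlib 3.10.9 were used for the rest.

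The members and gene lists were chosen with earlier results of these data known. Every called member, and in each complex the member with the largest rise and the largest fall, is given with all libraries, and from other lists each called gene. ATP5MC2, ATP5MC3, the other non-overlapping members, the pseudogenes and the genes just outside the threshold were named after their values were seen. Alternatives varied the pseudocount, filter, scaling, variance model, block, libraries and treatment of copies; weighting copies by length was chosen after seeing the data.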

Additional observations from a re-analysis of the deposited data

Results flagged for a closer look

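Among 100 groups of 4 libraries checked, made up of the members, sums and compared genes, 2 had a library far from the other 3, against about 1 in 20 by chance. ATP5F1A, the alpha subunit of ATP synthase, stood at 450.31 TPM in CR31B replicate 1 and between 292.99 and 297.63 TPM in the other CR31B libraries. Without that library its log2 fold change was -0.055 in place of 0.097. That library also had the highest protein-coding share, 61.3% of TPM, and the part of this share in the value was not tested. COX6C, a membrane subunit of complex IV, stood at 670.2 TPM in DMSO replicate 2 and between 592.81 and 598.18 TPM in the other DMSO libraries.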

How the results depend on the processing

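With the replicate block, 1453 genes and 5 members were called (12.3% of genes), in place of 879 and 3, and ATP5MC1 and ATP5MC3 joined the 3. The block changed no other member's call. Without a filter 442 genes and 1 member, ATP5F1E, passed, and with quantile normalization 5 members did (ATP5MC1 and ATP5PB added). Leaving out 1 library gave 405 to 785 genes, the lowest without DMSO replicate 4, and 1 to 4 members. ATP5F1E was called without each library. CYCS and COX6B1 both lost their calls without CR31B replicate 4, DMSO replicate 1 or DMSO replicate 4. The causes were not tested. Medians and sums by complex moved by less than 1 SD between replicates from the values given, under every alternative run for them.

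Estimates that changed sign lay near 0, apart from those summed with copies: ATP5F1E at -0.27 and COX7C at -0.43, or -0.098 weighted by length with the shortest transcript. Rescaled over protein-coding genes and after quantile normalization, in that order, UQCRC1 was 0.026 and 0.073, COX6C 0.0061 and 0.014, ATP5MC2 0.032 and 0.092, and ATP5PD 0.0051 and 0.047. SDHC was 0.0094 after quantile normalization. Leaving out 1 library gave -0.017 to 0.19 for SDHA, -0.14 to 0.10 for UQCRC1, -0.045 to 0.078 for UQCRH, -0.13 to 0.0047 for COX4I1, -0.11 to 0.077 for COX6C, -0.077 to 0.12 for COX7B, -0.055 to 0.15 for ATP5F1A, -0.0078 to 0.19 for ATP5F1D, -0.036 to 0.040 for ATP5MC2, -0.13 to 0.064 for ATP5PD, -0.039 to 0.15 for ATP5MG and -0.050 to 0.11 for ATP5PO. Of the members' estimates under all alternatives, 677 kept direction and call, 35 changed sign, 7 gained a call and 13 lost one. Among those that changed sign, ATP5F1E summed with its copies also lost its call. TPM give no depth, so its limit on single values is unknown, and UQCRFS1 is the only member under 10 TPM in both groups.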
